A study of Mus musculus with 14 samples.

Results

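The collagen genes of the mouse were examined in liver RNA: every protein-coding gene whose symbol is Col, a number, a and a number. The rule uses names only and found 44 genes among the 51912 gene rows of the count files. Of these, 11 code for chains of fibrillar collagens, 8 for basement membrane collagens and 25 for all other types. The filter on low counts kept 27 of the 44 (8 fibrillar, 7 basement membrane and 12 other), and only these were tested.

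Total RNA from a small piece of the left liver lobe was sequenced in 14 untreated mice, all 20 weeks old, with 1 library per mouse. All carried floxed alleles of Tet2 (Tet2fl/fl), whose product oxidizes the methyl mark on cytosine. The 4 controls were healthy littermates without cre. The other groups shared 1 genotype, with Vav-cre, whose Vav promoter drives cre mainly in blood cells and their precursors rather than in stellate cells or fibroblasts: 5 of these mice were asymptomatic and 5 had developed autoimmune hepatitis (AIH) spontaneously. The design asks how livers with hepatitis differ from healthy livers, and from livers of the same genotype without disease.

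Collagens are proteins of the extracellular matrix in which chains wind around each other in a triple helix. Fibrillar collagens (types I, II, III, V, XI, XXIV and XXVII) form the fibrils of scar and connective tissue. Type IV collagen forms the network of basement membranes, where types XV and XVIII also lie, and smaller collagens form beaded filaments (type VI), bind to fibril surfaces (types IX, XII, XIV and others) or span the cell membrane. In the liver, stellate cells and portal fibroblasts are known as the main makers of fibrillar collagen, and deposition of types I and III is a hallmark of fibrosis.

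The libraries held 15.97 to 18.9 M gene counts (M, mega). Tet2 had 8.53 to 11.98 CPM (counts per M counts, scaled by TMM) in controls, 4.77 to 9.23 in asymptomatic livers and 7.34 to 15.4 in AIH livers, so a level in whole liver did not separate the genotypes. The tissue matched its label, since 6 hepatocyte genes (Alb and others) summed to at least 85577 CPM in each library. The labels give no sex; Xist and Y-linked genes gave 2 females and 2 males among the controls, 5 males among the asymptomatic mice, and 4 females and 1 male (AIH 4) among the AIH mice. Sex and group are therefore partly confounded. The share of unaligned reads was 7.80% to 9.27% in asymptomatic 1, 3, 4 and 5 and 3.23% to 6.54% in all other libraries. Before any collagen value is read, the library AIH 3 has to be named: of the 14 collagen genes higher in AIH than in control livers, 12 had their highest level there, and the matrix protein genes Postn (309.6 CPM) and Spp1 (881 CPM) were also highest there. Where leaving out AIH 3 ended the call of a gene named here, its value without that library is given, except for Spp1.

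The makeup of collagen RNA differed more between the groups than its total did. In controls the 44 genes together gave 1309 ± 102 CPM (SD, n = 4). They gave 1204 ± 138 CPM (SD, n = 5) in asymptomatic and 1573 ± 544 CPM (SD, n = 5) in AIH livers (from 908 in AIH 2 to 2392 in AIH 3). Most of this was 1 gene, Col18a1, which codes for the basement membrane collagen XVIII, the source of the fragment endostatin. Col18a1 held 79.5% ± 3.18 of collagen counts in controls, 79.3% ± 3.86 in asymptomatic livers and 52.5% ± 9.66 in AIH livers, where the highest library (60.6%) lay below the lowest control (75.1%). The fibrillar genes held 5.62% ± 1.99, 6.43% ± 1.11 and 21.3% ± 5.01, again with no AIH library (15.5% or more) inside the range of the others (8.11% or less). In CPM, the fibrillar genes summed to 44.9 to 102 in controls, 58.5 to 91.2 in asymptomatic livers and 178 to 640 in AIH livers. These shares are of read counts, which also grow with gene length, and they are descriptions without a test.

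**Figure D1:**
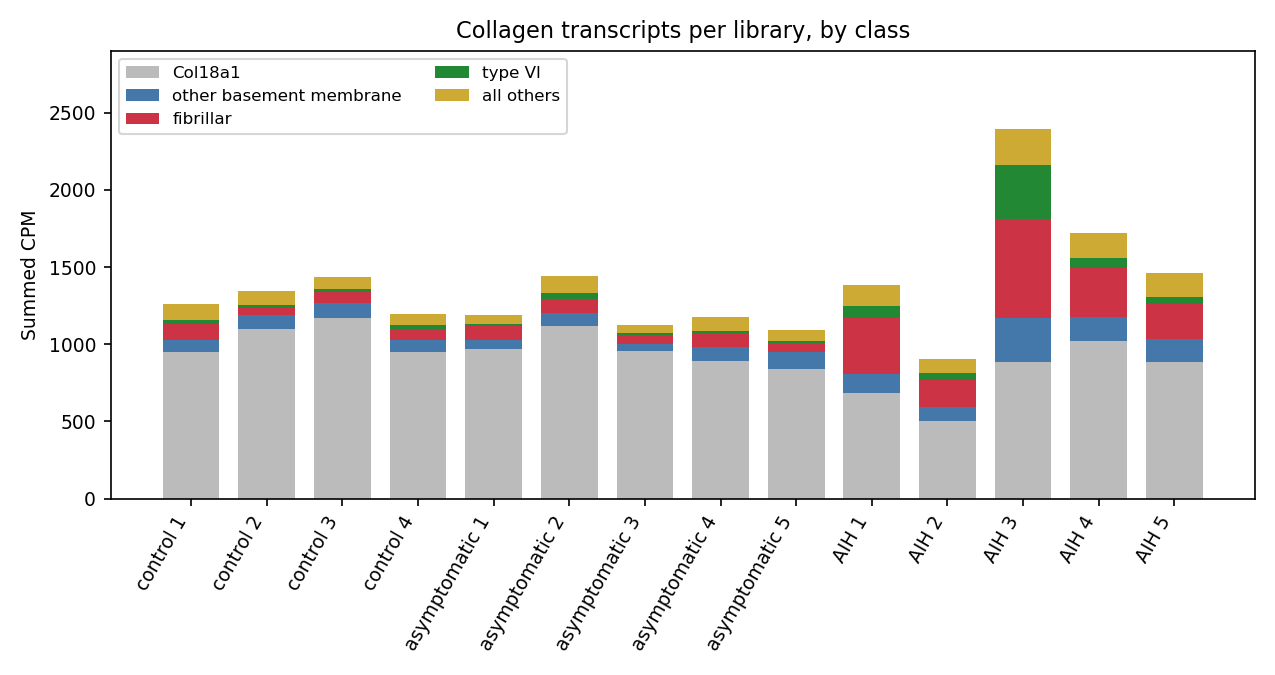
Stacked bars of TMM-scaled CPM summed over the collagen genes (y axis) in each of the 14 libraries (x axis), split into Col18a1, the other basement membrane genes, fibrillar genes, type VI genes and all others. The Col18a1 part takes 75.1% or more of each control bar and 60.6% or less of each AIH bar, and AIH 3 has the tallest bar, 2392 CPM.

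Read per kb of exon, Col18a1 was also first in every group, at 148 ± 15.98 CPM per kb in controls, 136 ± 15.1 in asymptomatic livers and 114 ± 29.0 in AIH livers. In controls Col14a1 (10.1 ± 1.81), Col4a1 (5.88 ± 0.733), Col4a2 (3.58 ± 0.421) and Col3a1 (2.42 ± 1.04 CPM per kb) came next, the last with a spread that reaches toward Col6a1 (1.88 ± 0.400). In AIH livers Col14a1 (19.7 ± 6.14) and Col3a1 (19.0 ± 10.9) followed Col18a1 and did not differ beyond their spread. Over the length of the longest principal transcript in place of all exons, Col3a1 (33.5 ± 19.3 CPM per kb) stood above Col14a1 (24.3 ± 7.58) in AIH livers, so the order of that pair depends on the length used.

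In AIH against control livers, 14 of the 27 tested collagen genes were higher and 0 lower at an adjusted p under 0.05 in edgeR's quasi-likelihood test. Of all 14638 genes tested, 21.7% were called, 15.6% higher and 6.08% lower. By class, 6 of 8 fibrillar, 2 of 7 basement membrane and 6 of 12 other genes were higher. The median log2 fold change of the 27 was 0.96, against -0.01 over all genes tested. Against asymptomatic livers, 13 were higher and 2 lower, where 29.8% of all genes were called, 19.1% higher and 10.7% lower, with medians of 0.98 and -0.03. Both comparisons use the same 5 AIH libraries, so they do not support each other independently. The count against controls ranged from 7 to 13 when 1 library was left out, and it was 8 without control 2, 7 without control 3, 7 without control 4 and 8 without AIH 3. Col1a1, Col1a2, Col3a1, Col5a2, Col6a1 and Col6a2 were called in each of the 9 fits that left out a control or AIH library. The calls of Col5a1, Col11a2, Col4a1, Col4a2, Col6a3, Col6a5, Col14a1 and Col16a1 were each lost in fits that left out a control, not only without AIH 3. DESeq2 gave no adjusted p for Col6a1 and Col6a2 and so did not call them. A fit with sex as a term called 10 genes against controls and 8 against asymptomatic livers. The shares of all genes called in these alternative fits are not given here, so the counts of collagen genes cannot be set against them.

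**Figure D2:**
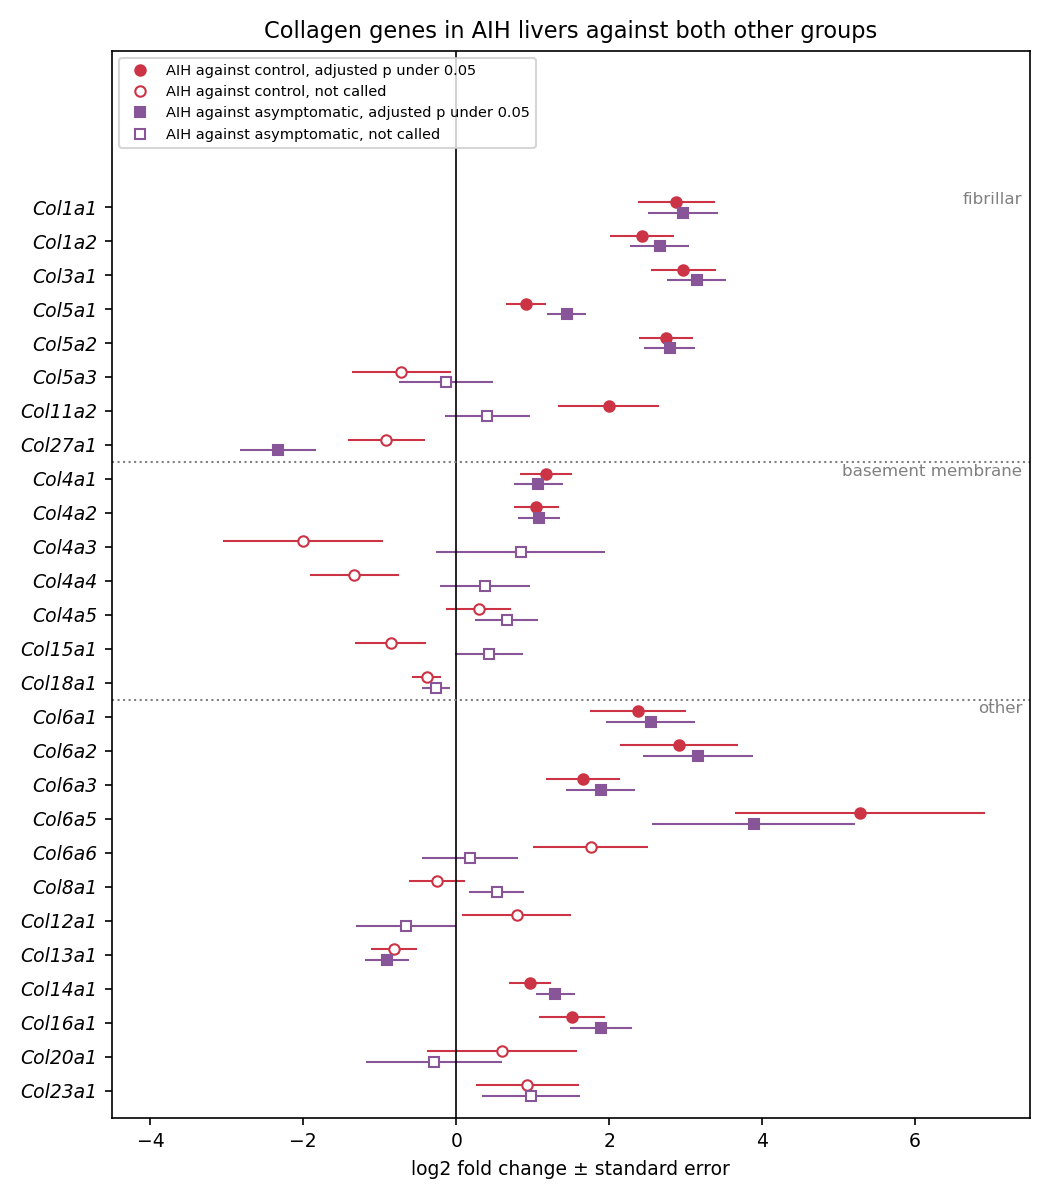
Log2 fold change with its standard error (x axis) of the 27 tested collagen genes (y axis, by class) in AIH against control (circles) and AIH against asymptomatic livers (squares). Filled symbols have an edgeR adjusted p under 0.05: 14 circles, all right of 0, and 15 squares, of which Col27a1 and Col13a1 lie left of 0.

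The interstitial fibrillar chains made up the clearest change. Col3a1, the only chain of type III collagen, which is typical of pliable and newly laid matrix, had 35.8, 13.2, 28.3 and 17.7 CPM in controls 1 to 4. It had 19.0, 28.8, 18.4, 25.5 and 13.6 CPM in asymptomatic 1 to 5 and 199, 88.0, 363, 161 and 120.2 CPM in AIH 1 to 5. All AIH libraries lay above all others, AIH 2 lowest among them and AIH 3 highest. The log2 fold change was 2.97 ± 0.42 (SE) against controls (edgeR adjusted p = 0.000222) and 3.14 ± 0.39 against asymptomatic livers (edgeR adjusted p = 4.90e-05). Without AIH 3 the value against controls was 2.57 ± 0.35 (edgeR adjusted p = 0.000218).

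Col3a1 (ENSMUSG00000026043) lies on chromosome 1 at 45311538 to 45349706 of GRCm38, plus strand, and its neighbour Col5a2 faces it tail to tail 24.6 kb away. The promoter stretch before its start site is shown because Col3a1 had the highest mean CPM per kb of the fibrillar genes in AIH livers and is 1 of 2, among the 11 collagen genes called higher against controls that the RefSeq promoter table holds, whose window (250 bases before to 50 after the start) holds TATAAA, the letters of a TATA box. Capitals mark TATAAA, which begins 117 bases before the start; the stretch is chr1:45311388-45311537, plus strand, RefSeq on GRCm38.p6.
Col3a1: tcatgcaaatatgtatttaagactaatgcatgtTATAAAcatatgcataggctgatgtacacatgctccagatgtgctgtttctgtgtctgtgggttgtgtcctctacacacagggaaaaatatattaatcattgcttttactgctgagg

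Type I collagen, the main protein of mature scar, is built from chains of Col1a1 and Col1a2. Col1a1 had 7.31, 4.41, 5.50 and 6.09 CPM in the controls, 5.33, 10.2, 1.76, 5.56 and 4.59 in the asymptomatic livers, and 49.0, 17.4, 82.7, 45.2 and 20.4 in the AIH livers. No AIH library overlapped another group. The rise was 2.88 ± 0.50 against controls (edgeR adjusted p = 0.00100) and 2.96 ± 0.46 against asymptomatic livers (edgeR adjusted p = 0.000304). Col1a2 had 14.4, 11.8, 12.1 and 12.5 CPM in controls, 7.80, 21.0, 7.47, 10.9 and 6.79 in asymptomatic livers, and 69.8, 35.1, 135, 63.6 and 39.2 in AIH livers, and asymptomatic 2 alone stood above the controls. Its rise was 2.43 ± 0.41 against controls (edgeR adjusted p = 0.000882) and 2.66 ± 0.38 against asymptomatic livers (edgeR adjusted p = 0.000172). The ratio of Col1a1 to Col1a2 CPM was 0.456 ± 0.0596 in controls, 0.518 ± 0.183 in asymptomatic and 0.608 ± 0.0998 in AIH livers, and the ranges of controls (0.373 to 0.508) and AIH livers (0.496 to 0.710) overlapped.

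Type V collagen sits inside type I fibrils and is known to set their diameter. Col5a2 was even across the AIH livers: 21.3, 17.8, 24.8, 16.1 and 16.8 CPM, against 2.69, 1.58, 4.79 and 2.46 in controls and 1.57 to 4.78 (median 2.28) in asymptomatic livers. AIH 3 was barely apart from the others for this gene. It rose by a log2 fold change of 2.75 ± 0.36 against controls (edgeR adjusted p = 0.000110) and 2.79 ± 0.33 against asymptomatic livers (edgeR adjusted p = 3.24e-05). Col5a1, its partner chain, had 7.46 to 8.76 CPM in controls, 4.29 to 8.88 in asymptomatic livers (the highest in asymptomatic 2, the others 5.19 or less) and 14.9, 9.43, 25.1, 13.3 and 14.3 in AIH livers. AIH livers lay above all others, while asymptomatic and control livers overlapped. Its log2 fold change was 0.91 ± 0.27 against controls (edgeR adjusted p = 0.0242; 0.67, adjusted p = 0.0609, without AIH 3) and 1.44 ± 0.25 against asymptomatic livers (edgeR adjusted p = 0.000770). The call against controls was lost with sex as a term (0.88, edgeR adjusted p = 0.0530). The ratio of Col5a1 to Col5a2 CPM was accordingly 3.38 ± 1.64 in controls, 2.26 ± 0.811 in asymptomatic livers and 0.783 ± 0.180 in AIH livers, whose highest value (1.01) lay just below the lowest of the others (1.04, asymptomatic 4). Col5a1 is shown beside Col3a1 because it is a fibrillar gene that rose less, and its window holds GGGCGG, the letters of a GC box, and no TATAAA. The windows of Col1a2 (log2 fold change 2.43 against controls) and Col6a2 (2.91) also hold GGGCGG and no TATAAA. A link of these letters to the size of a rise was not tested. Capitals mark GGGCGG 73 bases before the start, in chr2:27886325-27886424, plus strand.
Col5a1: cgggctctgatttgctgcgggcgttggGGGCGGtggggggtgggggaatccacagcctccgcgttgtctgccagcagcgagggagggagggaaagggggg

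The third type V chain behaved otherwise. Col5a3 had 17.0 and 17.9 CPM in the male controls (1 and 4) and 1.58 and 2.51 in the females (2 and 3), 2.47 to 12.8 in asymptomatic livers and 3.32 to 8.69 in AIH livers. It was not called in either comparison (log2 -0.72 ± 0.65 against controls, edgeR adjusted p = 0.470). With sex as a term in the fit its log2 fold change against controls was 0.58 (edgeR adjusted p = 0.580), of the opposite sign.

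**Figure D3:**
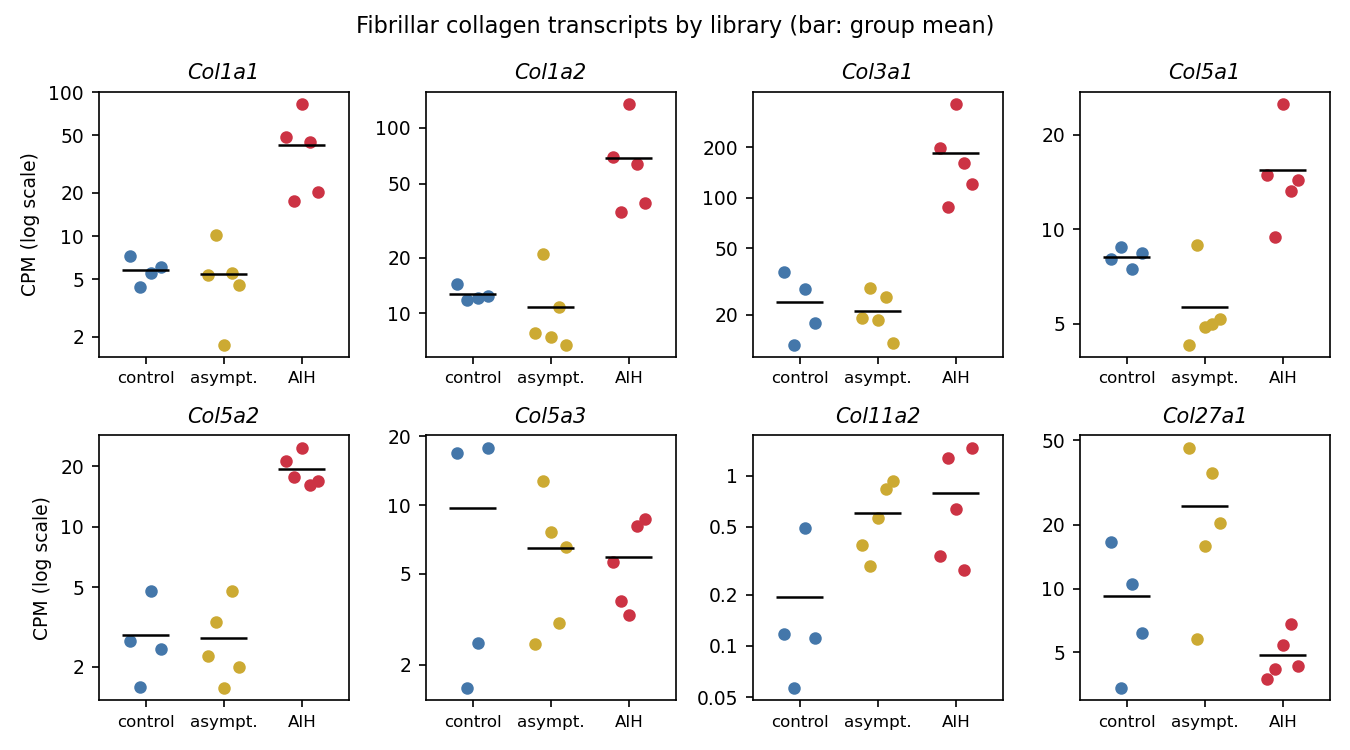
TMM-scaled CPM on a log axis (y) of the 8 tested fibrillar collagen genes in control, asymptomatic and AIH livers (x), 1 point per library, with a bar at each group mean. AIH points lie above all others for Col1a1, Col1a2, Col3a1, Col5a1 and Col5a2; for Col27a1 the asymptomatic livers reach 46.3 CPM while the AIH livers stay at 6.77 or less.

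Among the rarer fibrillar genes, Col27a1, a cartilage-associated fibrillar chain, ran the other way. It had 16.7, 3.39, 10.6 and 6.14 CPM in controls, 46.3, 5.76, 15.8, 35.0 and 20.4 in asymptomatic livers and 3.75, 4.18, 5.42, 6.77 and 4.29 in AIH livers. The AIH values were low and close together, and asymptomatic 2 alone of its group fell among them. Col27a1 was lower in AIH than in asymptomatic livers, by a log2 fold change of -2.34 ± 0.50 (edgeR adjusted p = 0.00295), and was not called against controls (-0.91 ± 0.51, edgeR adjusted p = 0.222). The 4 asymptomatic libraries with high values were also those with the most unaligned reads. All 5 asymptomatic mice were read as male, asymptomatic 2 with its low value among them. The part of unaligned reads in the result was not tested. With sex as a term the value against asymptomatic livers was -1.82 (edgeR adjusted p = 0.113). Of 4 cartilage genes, Acan was at 0 in all libraries, Comp reached 0.240 CPM and Matn3 0.0486, and Sox9, which bile ducts also express, had 2.12 to 8.55 CPM and was not called against controls.

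Col11a2, a chain of type XI collagen, was rare: 14 counts over the controls, 47 over the asymptomatic and 78 over the AIH livers. Its levels were 0.0565 to 0.490 CPM in controls (the highest in control 3, the others 0.117 or less), 0.294 to 0.931 in asymptomatic livers and 0.280 to 1.46 in AIH livers, and all groups overlapped. It was called higher in AIH than in control livers (1.99 ± 0.66, edgeR adjusted p = 0.0437), with an adjusted p of 0.0122 to 0.124 when 1 library was left out (0.0620 without AIH 3) and 0.109 with sex as a term. The other 3 fibrillar genes were not tested: Col24a1 had 67 counts over all libraries, Col11a1 had 3 and Col2a1, the cartilage collagen, had 1.

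The basement membrane class split by pair. Col4a1 and Col4a2 code for the chains of the common type IV network and start head to head on chromosome 8, with start sites so close that the genes overlap by 22 bases on opposite strands. Col4a1 had 41.4, 50.1, 37.7 and 46.4 CPM in controls, 31.5, 48.6, 26.4, 54.5 and 74.6 in asymptomatic livers and 79.1, 56.9, 188, 91.6 and 81.0 in AIH livers. AIH livers lay above all controls, while asymptomatic 5 lay inside their range. Col4a2 had 21.6 to 27.5 CPM in controls, 13.1 to 28.4 in asymptomatic livers and 36.8, 27.2, 85.2, 50.6 and 45.2 in AIH livers, of which AIH 2 fell among the controls. The log2 fold changes against controls were 1.18 ± 0.34 for Col4a1 (edgeR adjusted p = 0.0239) and 1.05 ± 0.30 for Col4a2 (edgeR adjusted p = 0.0211). Without AIH 3 they were 0.81 (edgeR adjusted p = 0.0619) and 0.75 (edgeR adjusted p = 0.0535), neither of them called. Against asymptomatic livers they were 1.08 ± 0.32 (edgeR adjusted p = 0.0200) and 1.08 ± 0.28 (edgeR adjusted p = 0.00945). The Col4a1 call was lost without AIH 3 (0.70, edgeR adjusted p = 0.0677) and without asymptomatic 1 (0.96, edgeR adjusted p = 0.0549), while Col4a2 kept its call without AIH 3 (0.78, edgeR adjusted p = 0.0274). With sex as a term neither was called against asymptomatic livers (edgeR adjusted p = 0.174 and 0.0600).

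The paired genes kept a like proportion in all groups: the ratio of Col4a1 to Col4a2 CPM was 1.87 ± 0.340 in controls, 2.01 ± 0.451 in asymptomatic livers and 2.01 ± 0.195 in AIH livers, with AIH 3 at 2.21. The region of their start sites is shown because both genes start in it, in opposite directions. The first stretch, before the Col4a2 start and inside the Col4a1 gene, is chr8:11312769-11312797 with CCAAT in capitals, 32 bases before that start. The second is the overlap of the genes, chr8:11312805-11312826, with GGGCGG in capitals; both are on the plus strand, the strand of Col4a2.
Col4a2: ctccCCAATttgttggcgctgccccctcc
Col4a1 and Col4a2 overlap: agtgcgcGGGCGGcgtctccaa

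**Figure D4:**
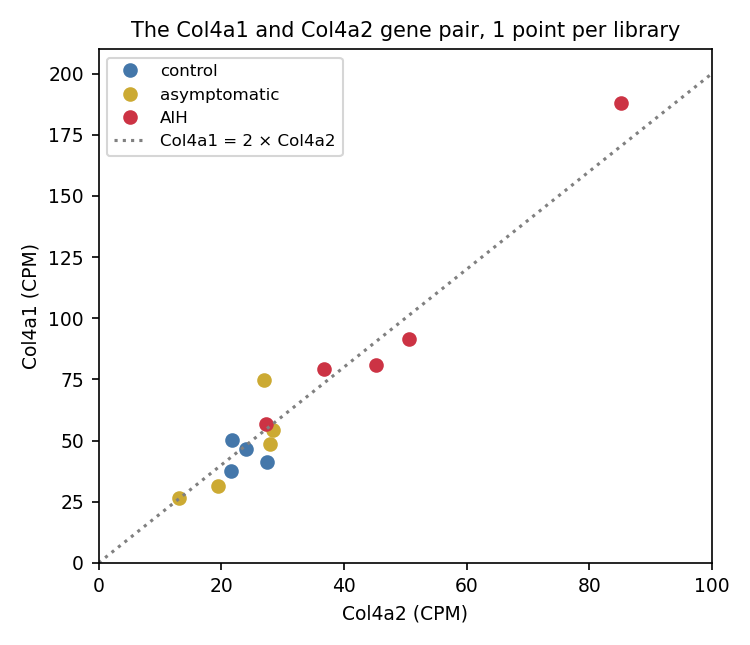
Col4a1 (y) against Col4a2 (x), both in TMM-scaled CPM, 1 point per library, colored by group; the dotted line marks a ratio of 2. The points of all groups lie along the line, with ratios from 1.503 to 2.77, and AIH 3 sits alone at 188 and 85.2 CPM.

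The chains of the specialized type IV networks of kidney, lung and eye did not follow. Col4a3 and Col4a4, also head to head (71 bases apart on chromosome 1), stood highest in control 3, at 8.72 and 3.38 CPM; elsewhere Col4a3 reached at most 1.87 and Col4a4 1.06 CPM. Neither was called in any comparison, with log2 fold changes in AIH against control livers of -2.001 ± 1.05 and -1.33 ± 0.58. Col4a4 was the only tested collagen gene with asymptomatic livers (0.200 to 0.823 CPM) below all controls (0.877 or more); 1.15% of all genes tested had that pattern. Col4a5, with 1.07 to 5.50 CPM over all libraries, was not called (0.29 ± 0.43 against controls), and its head-to-head neighbour Col4a6 had 67 counts in all and was not tested.

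Col18a1 and Col15a1 make the collagens XVIII and XV, whose sugar chains lie at the border of basement membranes. Col18a1 is known to be made by hepatocytes. It had 948, 1098, 1173 and 949 CPM in controls, 969, 1119, 956, 890 and 838 in asymptomatic livers and 683, 506, 888, 1024 and 886 in AIH livers. The lowest values were in AIH 1 and 2, and AIH 4 lay among the controls. The difference was not called (-0.39 ± 0.19 against controls, edgeR adjusted p = 0.172; -0.26 ± 0.18 against asymptomatic livers, edgeR adjusted p = 0.301). Summed over 6 hepatocyte genes, AIH 3 had 161115 CPM and the other AIH livers 85577 to 111679, against 114977 to 153843 in controls. Alb alone made up 136329 CPM of the AIH 3 sum. In AIH 3 Alb and Apoa1 stood above all controls, Ttr, Cps1 and Cyp2e1 below them, and Serpina1c among them. Of the 6 genes, 1 was called lower in AIH than in control livers and 0 higher, where 6.08% of all genes tested were lower. Against asymptomatic livers 3 were lower and 0 higher, where 10.7% of all genes were lower. Col15a1 had 3.69 to 21.4 CPM in controls, 2.82 to 6.32 in asymptomatic livers and 2.96 to 11.6 in AIH livers, and was not called (-0.86 ± 0.46 against controls, edgeR adjusted p = 0.207). In whole tissue, fewer cells of a type and less RNA per cell cannot be told apart, for these as for all other genes.

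Type VI collagen forms beaded filaments between basement membranes and fibrils, from chains of Col6a1, Col6a2 and a partner chain, most often that of Col6a3. Col6a1 had 9.06, 8.99, 5.61 and 9.27 CPM in controls, 6.83, 13.1, 6.09, 6.40 and 4.26 in asymptomatic livers and 22.6, 18.8, 138, 19.3 and 16.01 in AIH livers. Col6a2 had 6.72, 5.60, 3.98 and 5.42, then 4.23, 9.06, 2.57, 3.62 and 3.33, then 18.2, 11.96, 149, 15.4 and 9.999 CPM in the same order. For both genes all AIH livers lay above all others, and AIH 3 lay far above the rest of its group.

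Col6a1 rose by a log2 fold change of 2.38 ± 0.62 against controls (edgeR adjusted p = 0.0138) and Col6a2 by 2.91 ± 0.77 (edgeR adjusted p = 0.0148). Without AIH 3 the rises were 1.22 ± 0.29 (edgeR adjusted p = 0.00943) and 1.35 ± 0.34 (edgeR adjusted p = 0.0146), still called. The ratio of group means was 5.20 for Col6a1 and 7.55 for Col6a2 with AIH 3, and 2.33 and 2.56 without it. Against asymptomatic livers the log2 fold changes were 2.54 ± 0.58 and 3.16 ± 0.72 (edgeR adjusted p = 0.00453 for each), and without AIH 3 they were 1.38 ± 0.27 (edgeR adjusted p = 0.00220) and 1.60 ± 0.32 (edgeR adjusted p = 0.00282). With sex as a term, Col6a2 was not called against controls (2.69, edgeR adjusted p = 0.0544), and neither gene was called against asymptomatic livers (2.22 and 2.74, edgeR adjusted p = 0.113 for each).

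Col6a3 had 5.23 to 10.5 CPM in controls, 2.45 to 15.9 in asymptomatic livers (asymptomatic 2 highest) and 32.5, 9.87, 42.7, 25.3 and 20.0 in AIH livers. AIH 2 fell within the controls' range. It rose by 1.66 ± 0.48 against controls (edgeR adjusted p = 0.0241; 1.41, adjusted p = 0.0609, without AIH 3) and by 1.89 ± 0.45 against asymptomatic livers (edgeR adjusted p = 0.00629). In AIH 3 Col6a3 stood low against its partners: the ratio of Col6a3 to Col6a1 CPM was 0.310 there, against 0.526 to 1.44 in the other AIH livers and 0.836 to 1.16 in controls.

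Genes of the alternative partner chains, Col6a4, Col6a5 and Col6a6, lie side by side on chromosome 9. Col6a5 had 7 counts over the controls and 22 over the asymptomatic livers, and 0.528, 0.194, 18.2, 1.57 and 0.202 CPM in AIH 1 to 5. Its log2 fold change of 5.28 ± 1.64 against controls (edgeR adjusted p = 0.0321) rests on AIH 3: the ratio of group means was 41.3 with that library and 6.21 without it, and the gene did not pass the count filter without it. It was not called with sex as a term (edgeR adjusted p = 0.0750). Col6a6, at 1.75 CPM or less, was not called (1.76 ± 0.75 against controls, edgeR adjusted p = 0.112). Col6a4 had 1 count over the controls, 1 over the asymptomatic and 25 over the AIH livers, 20 of them in AIH 4, and was not tested.

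**Figure D5:**
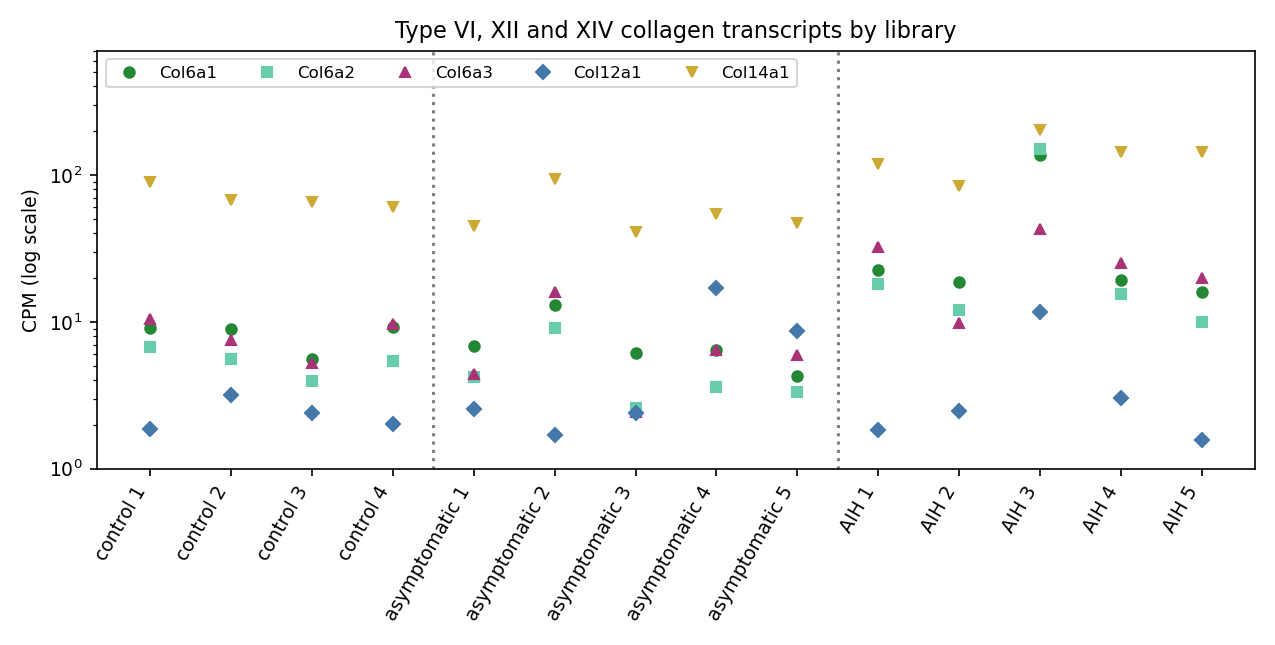
TMM-scaled CPM on a log axis (y) of Col6a1, Col6a2, Col6a3, Col12a1 and Col14a1 in each library (x), groups parted by dotted lines. Col6a1 and Col6a2 are at 9.999 to 22.6 CPM in 4 AIH livers and at 138 and 149 in AIH 3, while Col14a1 varies less, from 83.8 to 201 CPM in AIH livers.

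Of the collagens that bind to fibril surfaces, 2 rose. Col14a1, which is known to limit the growth of fibrils, followed Col18a1 in CPM per kb of exon in controls. It had 89.4, 67.5, 65.8 and 60.9 CPM in controls, 44.8, 93.8, 41.0, 54.3 and 47.3 in asymptomatic livers and 118, 83.8, 201, 144 and 144 in AIH livers. AIH 2 was the only AIH liver within the range of the others. The log2 fold change was 0.96 ± 0.27 against controls (edgeR adjusted p = 0.0209; 0.79, adjusted p = 0.0559, without AIH 3) and 1.30 ± 0.26 against asymptomatic livers (edgeR adjusted p = 0.00180). Col16a1, found with fibrils and with cell adhesion sites, had 1.62 to 3.45 CPM in controls, 1.19 to 3.06 in asymptomatic livers and 13.5, 2.87, 8.97, 6.77 and 3.74 in AIH livers, highest in AIH 1. It rose by 1.52 ± 0.43 against controls (edgeR adjusted p = 0.0204), by 1.42 without AIH 3 (edgeR adjusted p = 0.0431), and by 1.89 ± 0.40 against asymptomatic livers (edgeR adjusted p = 0.00298). The Col16a1 call against controls was lost without control 3, control 4 or AIH 1, with an edgeR adjusted p of up to 0.0666. Its promoter stretch is shown because it is the only stretch printed here that holds both GGGCGG and CCAAT, 159 and 113 bases before the start and in capitals: chr4:130047670-130047759, plus strand. The full windows of Col1a2, Col4a1 and Col4a2 hold both motifs too, so the pairing is not particular to Col16a1.
Col16a1: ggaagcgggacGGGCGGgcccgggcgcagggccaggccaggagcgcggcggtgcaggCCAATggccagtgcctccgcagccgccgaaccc

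Col12a1, a collagen of tendon and stretched tissue, was high in single libraries of different groups: 17.0 CPM in asymptomatic 4, 8.65 in asymptomatic 5 and 11.7 in AIH 3, with 1.57 to 3.17 in the other 11. It was not called (0.79 ± 0.72 against controls, edgeR adjusted p = 0.471), and the value was -0.09 without AIH 3. Tagln, a gene of contractile cells, was also highest in AIH 3 and asymptomatic 4, at 23.3 and 18.9 CPM; its part in the Col12a1 values was not tested. Col20a1, at 1.26 CPM or less, was not called. Of the untested members of this group, Col22a1 had 15 counts over 4 AIH livers and 0 in all controls and asymptomatic livers. Its pooled AIH level was 3.69-fold a floor of 3 counts over the controls and 4.10-fold that floor over the asymptomatic livers. These ratios leave out the error of the AIH counts and the spread between mice, and the difference was not tested. Col9a1 had 5 counts, all in AIH 3, Col9a2 had 12 and Col9a3 had 32 in all, and Col19a1 had 1.

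Of the membrane-spanning collagens, no tested gene was called higher. Col13a1, found at cell contacts and the nerve-muscle junction, had 5.03, 10.1, 5.56 and 8.21 CPM in controls, 7.87, 7.35, 4.08, 9.89 and 9.11 in asymptomatic livers and 4.18, 2.53, 6.29, 3.36 and 4.14 in AIH livers. AIH 3 was the highest of its group for this gene too, and the groups overlapped. It was lower in AIH than in asymptomatic livers (-0.90 ± 0.29, edgeR adjusted p = 0.0300), a call kept in 3 of the 10 fits that left out 1 library (those without asymptomatic 2, asymptomatic 3 or AIH 3) and lost in the others, with an adjusted p of up to 0.0775. Against controls it missed the threshold (-0.82 ± 0.30, edgeR adjusted p = 0.0696), and it passed without AIH 3 (-1.02, edgeR adjusted p = 0.0318) and in DESeq2 (-0.83, DESeq2 adjusted p = 0.0413). With sex as a term the value against asymptomatic livers was -1.14 (edgeR adjusted p = 0.1095). Col23a1, at 1.23 CPM or less, was not called, though its log2 fold changes were positive. They were 0.93 ± 0.67 against controls (edgeR adjusted p = 0.358) and 0.98 ± 0.64 against asymptomatic livers (edgeR adjusted p = 0.264). Col25a1 had 44 counts in all, 35 of them in control 1, and Col17a1, a collagen of skin attachment, had 23.

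The remaining genes were near or below detection. Col8a1, a short-chain collagen of vessel walls, had 0.437 to 1.51 CPM over all libraries and was not called, and Col8a2 had 73 counts, the most of any gene left out by the filter, where the least abundant tested gene, Col23a1, had 117. Col7a1, which anchors skin to its basement membrane, had 26 counts and Col28a1 had 4. Col10a1, the collagen of growth plate cartilage, and Col26a1 had 0 counts in all libraries, which allows up to 0.0422 CPM in controls at the floor of 3 counts over the group, counting error only.

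Counting non-overlap in place of a model, all AIH livers lay above all controls for 8 of the 27 genes, where 13.2% of all genes tested did so. These were Col1a1, Col1a2, Col3a1, Col5a1, Col5a2, Col4a1, Col6a1 and Col6a2. All AIH livers lay above all asymptomatic livers for the same genes without Col4a1, 7 of 27 against 12.3% of all genes tested.

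Between asymptomatic and control livers no collagen gene was called by edgeR, as for all other genes (0.0%). At an unadjusted p under 0.05 there were 5 collagen genes of 27 and 1542 of the 14638 genes tested. The 5 were Col11a2 (log2 1.59 ± 0.68), Col27a1 (1.42 ± 0.52), Col15a1 (-1.29 ± 0.47), Col4a3 (-2.84 ± 1.116) and Col4a4 (-1.70 ± 0.60), each with an edgeR adjusted p of 0.420 to 0.444. DESeq2 called no collagen gene and limma-voom with quality weights called 3, which need not be among these 5. The share of all genes that limma-voom called is not given here, so the 3 cannot be set against it. Of the collagen genes called in any comparison or with a mean of at least 1 CPM, Col27a1, Col5a1 and Col11a2 alone passed the threshold in any alternative fit. The main fibrillar genes lay close to controls, at -0.09 ± 0.47 for Col1a1, -0.23 ± 0.39 for Col1a2 and -0.17 ± 0.38 for Col3a1, which does not show that they were equal. Asymptomatic 2 was the highest library of its group for Col1a1, Col1a2, Col3a1, Col5a1, Col6a1, Col6a2, Col6a3, Col6a5 and Col14a1.

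Among the 35 collagen genes found in the RefSeq promoter table, 38 windows were searched on both strands for 3 short motifs. GGGCGG was in 60.5% of collagen windows and 35.7% of all 32851 windows, CCAAT in 34.2% and 37.4%, and TATAAA in 13.2% and 13.6%. Of the 14 genes higher in AIH than in control livers, 11 were in the table; CCAAT was in the windows of 4 of them (Col1a2, Col4a1, Col4a2 and Col16a1). These matches are letters in a window, and they are not binding data. In Col1a2 a CCAAT on the opposite strand lies at the start site itself. It reads ATTGG, in capitals, in this stretch from 12 bases before to 18 bases from the start, chr6:4505606-4505635, plus strand.
Col1a2: cctagccctcccATTGGtggagacgttttt

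Genes that act on collagen were counted in the same test, in which 15.6% of all genes were higher and 6.08% lower in AIH than in control livers. Of 18 tested genes for modification and folding, 6 were higher in AIH than in control livers and 0 lower, with a median of 0.54. They included Serpinh1, the collagen chaperone HSP47, at 32.4 ± 9.15 CPM against 9.60 ± 4.02 in controls (log2 1.75 ± 0.38, edgeR adjusted p = 0.00433), Crtap, a partner of prolyl 3-hydroxylase (1.22 ± 0.29, edgeR adjusted p = 0.00761), and Plod2, a lysyl hydroxylase (1.95 ± 0.47, edgeR adjusted p = 0.00850). Of 6 crosslinking genes, 4 were higher, among them the oxidases Loxl2 (1.99 ± 0.36) and Lox (2.93 ± 0.65) and the transglutaminase Tgm2. Tgm2 stood at 2547 CPM in AIH 3 and 198 to 574 in the other AIH livers, against 142 to 182 in controls (2.21 ± 0.66, edgeR adjusted p = 0.0274). Without AIH 3 Tgm2 was not called (0.99 ± 0.35, edgeR adjusted p = 0.0722), Lox was at 2.25 ± 0.52, and 2 of the 6 crosslinking genes were higher.

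Of 11 tested genes for secretion and processing, 3 were higher and 3 lower. Pcolce, an enhancer of the enzyme that trims fibrillar procollagen, was higher (1.97 ± 0.30, edgeR adjusted p = 0.000409), as was Pcolce2 (1.19 ± 0.36, edgeR adjusted p = 0.0292). Mia2, which helps load large cargo for export from the endoplasmic reticulum, was lower, at 263 ± 53.4 CPM against 457 ± 65.4 in controls (-0.80 ± 0.19, edgeR adjusted p = 0.00720). Lower too were Sec23a, of the same list (-0.85 ± 0.24, edgeR adjusted p = 0.0211), and Mia3, known for collagen export (-0.51 ± 0.17, edgeR adjusted p = 0.0481). Mia3 was not called without AIH 3 (-0.53, edgeR adjusted p = 0.0684), when 2 genes of this list were higher and 2 lower.

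Of 10 receptor and uptake genes, 4 were higher, with Lair1, an inhibitory collagen receptor of leukocytes (2.06 ± 0.35), Mrc2, an endocytic collagen receptor (1.68 ± 0.38), and Ddr2, a receptor kinase for fibrillar collagen (0.55 ± 0.17, edgeR adjusted p = 0.0340; 0.54, adjusted p = 0.0558, without AIH 3, when 2 of 8 tested genes were higher). Of 9 proteoglycans and glycoproteins found with fibrils, 2 were higher, Lum (1.69 ± 0.36) and Bgn (1.07 ± 0.25), while Dcn missed the threshold (0.75 ± 0.29, edgeR adjusted p = 0.0822). Of 18 genes of TGF-beta and PDGF signalling (growth factors, receptors, Smad genes, Bambi and the target Ccn2), 4 were higher, with Tgfb1 (1.44 ± 0.24), Tgfb3 (2.26 ± 0.56, or 1.54 without AIH 3) and Pdgfb (1.37 ± 0.31). The shares of these last lists against controls, 2 of 9 and 4 of 18, lay near that of all genes tested. Against asymptomatic livers they were 5 of 9 and 6 of 18, where 19.1% of all genes were higher. In that comparison 7 of 10 receptor and uptake, 5 of 6 crosslinking and 6 of 18 modification and folding genes were higher. Of the 11 secretion and processing genes, 3 were higher and 3 lower there. None of these lists had a called gene between asymptomatic and control livers.

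Counts of cell markers are read against the same 15.6% of all genes. Of 7 activated mesenchyme genes, 6 were higher in AIH than in control livers, and they summed to 22.2 to 31.1 CPM in controls, 18.1 to 47.6 in asymptomatic livers and 54.1 to 383 in AIH livers, or up to 91.7 without AIH 3. Of 8 stellate cell genes, 1 was higher against controls, no more than the share of all genes, with sums of 141 to 215, 103 to 236 and 179 to 259 CPM. Against asymptomatic livers, where 19.1% of all genes were higher, 4 of these 8 were higher, with a median log2 fold change of 0.96. Of 5 tested portal fibroblast genes, 3 were higher, with sums of 6.72 to 10.4, 5.04 to 8.53 and 12.8 to 27.4 CPM (2 higher without AIH 3). All 6 leukocyte genes were higher, with sums of 95.7 to 195 CPM in controls and 503 to 1131 in AIH livers, lowest among these in AIH 3. Biliary genes summed to 904 CPM in AIH 3, of which Spp1 was 881, and to 79.0 to 119 in the other AIH livers. Spp1 was the 1 biliary gene of 5 tested called higher against controls (2.18 ± 0.72, edgeR adjusted p = 0.0436). Without AIH 3, 0 biliary genes were called. Mesothelial genes summed to 12.9 CPM in AIH 3 and at most 6.43 in the other AIH livers. Skeletal muscle genes stayed at 0.381 CPM or less. In AIH against asymptomatic livers, 5 of 7 activated mesenchyme, 4 of 5 portal fibroblast and 6 of 6 leukocyte genes were higher. Of the tested biliary genes 1 of 5 was higher there, and of the mesothelial genes 0 of 4. The part of these cells in the collagen changes was not tested.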

How the data were processed

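The authors deposited 1 table of raw read counts per library, by Ensembl gene and not normalized. Per the submitters' processing notes, HISAT2 2.1.0 and HTSeq 0.9.0 were among the tools, beside FastQC 0.11.5, cutadapt 1.12, R 4.0 and edgeR, and both GRCh38 and GRCm38 are named. The gene IDs are mouse. Annotation release, strand setting and layout are not given in the sources used here, so antisense reads cannot be told apart. Of the 27 tested collagen genes 8 share exon bases with another gene, at most 5.65% of a gene (Col4a3). Symbols and positions came from GENCODE M21 (51719 of 51912 IDs). HTSeq summary rows stayed out of library sizes.

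Counts were filtered with filterByExpr (14638 genes), scaled by TMM and tested in edgeR 4.0.16 (R 4.3.3) by the two-sided quasi-likelihood F-test, with all 14 libraries fitted at once and 1 mean for each group. Benjamini-Hochberg adjustment ran over all genes tested, with a threshold of 0.05. CPM are scaled by TMM; values after ± are SD for levels and SE for log2 fold changes. Floors cover counting error. The pipeline was tested on simulated data. Alternatives were RLE, library totals alone, no count filter, at least 10 counts in 4 libraries, DESeq2 1.42.0, limma-voom (limma 3.58.1), a sex term, a fit of 2 groups alone, and every library omitted in turn; contrasts within a sex and the principal transcript length were added after seeing the data. Groups came from the labelled phenotype.

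The collagen genes and the lists set beside them were chosen with earlier results of these data known, so no list is independent evidence. Named were collagen genes called in any comparison or with a mean of at least 1 CPM, those next to the filter, and from each list the 3 genes with the smallest p in AIH against control; Pcolce2, Mia3, Dcn, Tagln and the genes named for AIH 3 were chosen after their values were seen.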

Additional observations from a re-analysis of the deposited data

Results flagged for a closer look

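In 66 sets of libraries of 1 group (the named collagen genes in each group), 14 held a library whose gap to its nearest neighbour exceeded Dixon's 95% critical value. The nominal rate of 1 in 20 is for separate sets of normally distributed values. These sets hold unlogged CPM and reuse the same libraries, so the count was not compared with chance. Col6a5 did not pass the count filter without AIH 3. AIH 3 accounted for 5 of them: Col6a1 (137.5 CPM, the others at most 22.6), Col6a2 (149.3, at most 18.2), Col6a5 (18.2, at most 1.57), Col4a1 (188, at most 91.6) and Col12a1 (11.7, at most 3.02). Asymptomatic 2 stood above its group for Col1a2 (21.0 CPM, the others at most 10.9), Col5a1 (8.88, at most 5.19), Col6a1 (13.1, at most 6.83), Col6a2 (9.06, at most 4.23), Col6a5 (1.06, at most 0.129) and Col14a1 (93.8, at most 54.3). That library also had the smallest share of unaligned reads of its group, 4.93%. Control 3 stood above its group for Col4a3 (8.72 CPM, the others at most 0.848) and Col11a2 (0.490, at most 0.117), and below it for Col6a1 (5.61, the others at least 8.99).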

How the results depend on the processing

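No paired analysis was possible because replicate numbers follow accession order and pair no animals. The 14 calls of AIH against control numbered 7 to 13 with 1 library left out, 10 with sex as a term, 3 within females and 3 within males; the 15 of AIH against asymptomatic numbered 12 to 14 with 1 library left out, 8 with sex as a term and 5 within males. Asymptomatic against control had 3 calls in limma-voom and 0 in each fit with 1 library left out. Within a sex few animals remain (within males, 1 AIH liver, its spread taken from the other groups). The shares of all genes called in these alternative fits are not given here, so a fall in calls particular to collagen genes cannot be told from one over all genes. Signs turned only where no main call stood. AIH against control: Col5a3 0.12 in limma-voom, 0.58 with sex as a term, 1.37 within females; Col4a5 -0.062 in limma-voom and -0.064 within females; Col12a1 -0.038 in limma-voom; within males Col15a1 0.36 and Col18a1 0.093. Asymptomatic against control: limma-voom gave Col3a1 0.030, Col5a2 0.26 and Col4a2 0.013; Col5a2 was 0.12 with sex as a term and 0.12 within males, where Col4a5 was 0.11 and Col18a1 0.00035. AIH against asymptomatic: Col5a3 0.074 with library totals, 0.51 in limma-voom, 1.62 with sex as a term, 0.31 within males; Col11a2 -0.24, -0.89 and -1.10 in the last 3 of these; Col4a3 -1.03 with sex as a term and -0.17 within males; Col15a1 -0.051 with sex as a term; Col18a1 0.092 within males. Leaving out 1 library gave ranges across 0 for Col4a5 (-0.0078 to 0.59) and Col12a1 (-0.093 to 1.01) in AIH against control; Col1a1 (-0.44 to 0.14), Col3a1 (-0.36 to 0.11), Col5a2 (-0.32 to 0.32), Col4a1 (-0.12 to 0.25), Col4a2 (-0.12 to 0.12) and Col13a1 (-0.030 to 0.31) in asymptomatic against control; and Col5a3 (-0.35 to 0.26), Col4a3 (-0.0027 to 1.45) and Col12a1 (-1.55 to 0.10) in AIH against asymptomatic. The cause was not tested. Depth limits the 17 untested collagen genes, each with 73 counts or fewer.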
